A study of Mus musculus with 16 samples.

Results

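The hepatic organic anion and drug transporters considered here are 9 genes: the uptake carriers Slc22a7, Slco1a1, Slco1a4, Slco1b2 and Slco2b1 and the exporters Abcc2, Abcc3, Abcc4 and Abcg2. They were chosen by name, and all 9 of the 9 listed genes were measured, out of 18820 genes on the array. RefSeq places Slc22a7 on chromosome 17, Slco2b1 on 7, Abcc2 on 19, Abcc3 on 11, Abcc4 on 14, and Slco1a1, Slco1a4, Slco1b2 and Abcg2 on 6. Each was read by a single probe set that the array's annotation gives to that gene alone. RNA from mouse liver was measured on 16 whole-transcript arrays, 4 in each of 4 groups: fasted vanin-1 knockout (KO), fasted wild type (WT), fed KO and fed WT. All mice were male, 14 to 16 weeks old, individually housed and given chow, and both genotypes carry the C57Bl/6J background in the labels. Fasted mice had no food for 24 h, from morning to morning. The labels call the mutants vanin-1 null and give no further detail of the allele. Whether each array holds a separate animal is not spelled out in them. The p-values therefore measure the spread between these samples.

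Hepatocytes clear organic anions, bile acids, steroid conjugates and many drugs from portal blood in 2 steps. Carriers of the Slco family (Oatps) and of the Slc22 family take them up across the sinusoidal membrane, and ATP-driven pumps of the Abc superfamily move them, often after conjugation, into bile or back into blood. Abcc2 (Mrp2) and Abcg2 (Bcrp) sit on the canalicular side, while Abcc3 (Mrp3) and Abcc4 (Mrp4) face the blood. Vnn1 encodes vanin-1, a pantetheine-hydrolysing enzyme anchored in the cell membrane, and is a known target of the fasting-activated receptor PPARalpha.

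Slco1b2, Slco1a4 and Slco1a1 lie in 1 run of related genes on mouse chromosome 6, and their upstream sequences are shown because Slco1a1 was the gene of that run called on fasting. Each run is the 250 bases just before the RefSeq start (GRCm38.p6), read 5′ to 3′ on the gene's strand: chr6:141946963-141947212 (minus) for Slco1a1, chr6:141856221-141856470 (minus) for Slco1a4 and chr6:141629268-141629517 (plus) for Slco1b2. Capitals mark matches to any of 4 motifs searched on both strands.
Slco1a1: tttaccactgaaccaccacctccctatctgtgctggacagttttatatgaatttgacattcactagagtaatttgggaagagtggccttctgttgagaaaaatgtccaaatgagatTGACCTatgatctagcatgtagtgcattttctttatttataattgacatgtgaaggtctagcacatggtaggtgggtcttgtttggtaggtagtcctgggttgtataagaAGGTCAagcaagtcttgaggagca
Slco1a4: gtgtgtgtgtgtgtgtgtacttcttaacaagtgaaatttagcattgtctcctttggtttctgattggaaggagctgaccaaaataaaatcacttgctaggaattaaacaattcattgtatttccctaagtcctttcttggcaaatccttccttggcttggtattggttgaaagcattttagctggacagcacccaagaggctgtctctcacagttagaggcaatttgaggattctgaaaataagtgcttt
Slco1b2: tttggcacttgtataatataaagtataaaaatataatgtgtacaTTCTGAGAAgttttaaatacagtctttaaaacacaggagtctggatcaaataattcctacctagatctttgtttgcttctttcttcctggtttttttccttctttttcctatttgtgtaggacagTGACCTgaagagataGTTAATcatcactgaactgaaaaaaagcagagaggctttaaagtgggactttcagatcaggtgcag
The motifs were the nuclear receptor half-site AGGTCA, the STAT element TTCNNNGAA, the HNF1 half-site GTTAAT and the antioxidant response element core TGACNNNGC. They were present in 14.0%, 7.02%, 6.43% and 10.2% of 32841 promoters of the same length. Slco1a1 held the half-site at bases -134 to -129 and -24 to -19 from its start. Slco1b2 held the STAT element at -206 to -198, the nuclear receptor half-site at -81 to -76 and the HNF1 half-site at -66 to -61. None of these letters occurred in the Slco1a4 window, and none of the matches overlapped. Among other members, the nuclear receptor half-site lay in the window of Abcc2 (-49 to -44), which was not called on fasting. It also lay in windows of Abcg2 (-212 to -207 and -121 to -116 in 1 promoter, -197 to -192 in another), likewise not called. A match describes letters only.

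The values are log2 intensities, so a difference of 1 is a doubling, and each array is called by its group and the number in its title. Array medians were 5.19 to 5.29, and the correlation across genes between arrays of the same group was 0.989 to 0.996. Vnn1, the targeted gene, was at 3.67 to 4.26 in fasted KO and at 9.93 to 11.47 in fasted WT liver (log2 difference -6.83, limma adjusted p = 1.05e-05). It was at 3.80 to 4.06 in fed KO and at 6.71 to 10.34 in fed WT liver (log2 difference -5.02, limma adjusted p = 9.61e-04), so every array carried the genotype on its label. The mean of 7 hepatocyte markers lay between 12.94 and 13.13 on all 16 arrays, so markers of the labelled tissue were high throughout. Single arrays stood apart in other lists. Fasted WT 4 had a mean of 7.69 over 7 pancreatic acinar markers, against 3.75 to 3.90 on the other arrays. Fed KO 4 had a mean of 11.59 over 12 acute phase genes, against 9.11 to 10.10 on the other fed KO arrays. Fed WT 4 had the highest mean of 10 macrophage markers, 8.96 against 8.29 to 8.53 on the other fed WT arrays, and the lowest Vnn1 of its group. It also had the lowest mean of its group over 6 targets of the receptors CAR and PXR (8.35 against 8.90 to 9.49). The same was so over 7 PPARalpha targets (8.55 against 9.00 to 9.65). Fed KO 4 too was lowest of its group in both lists, at 8.54 against 9.03 to 9.52 and 8.10 against 8.84 to 9.33.

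**Figure D1:**
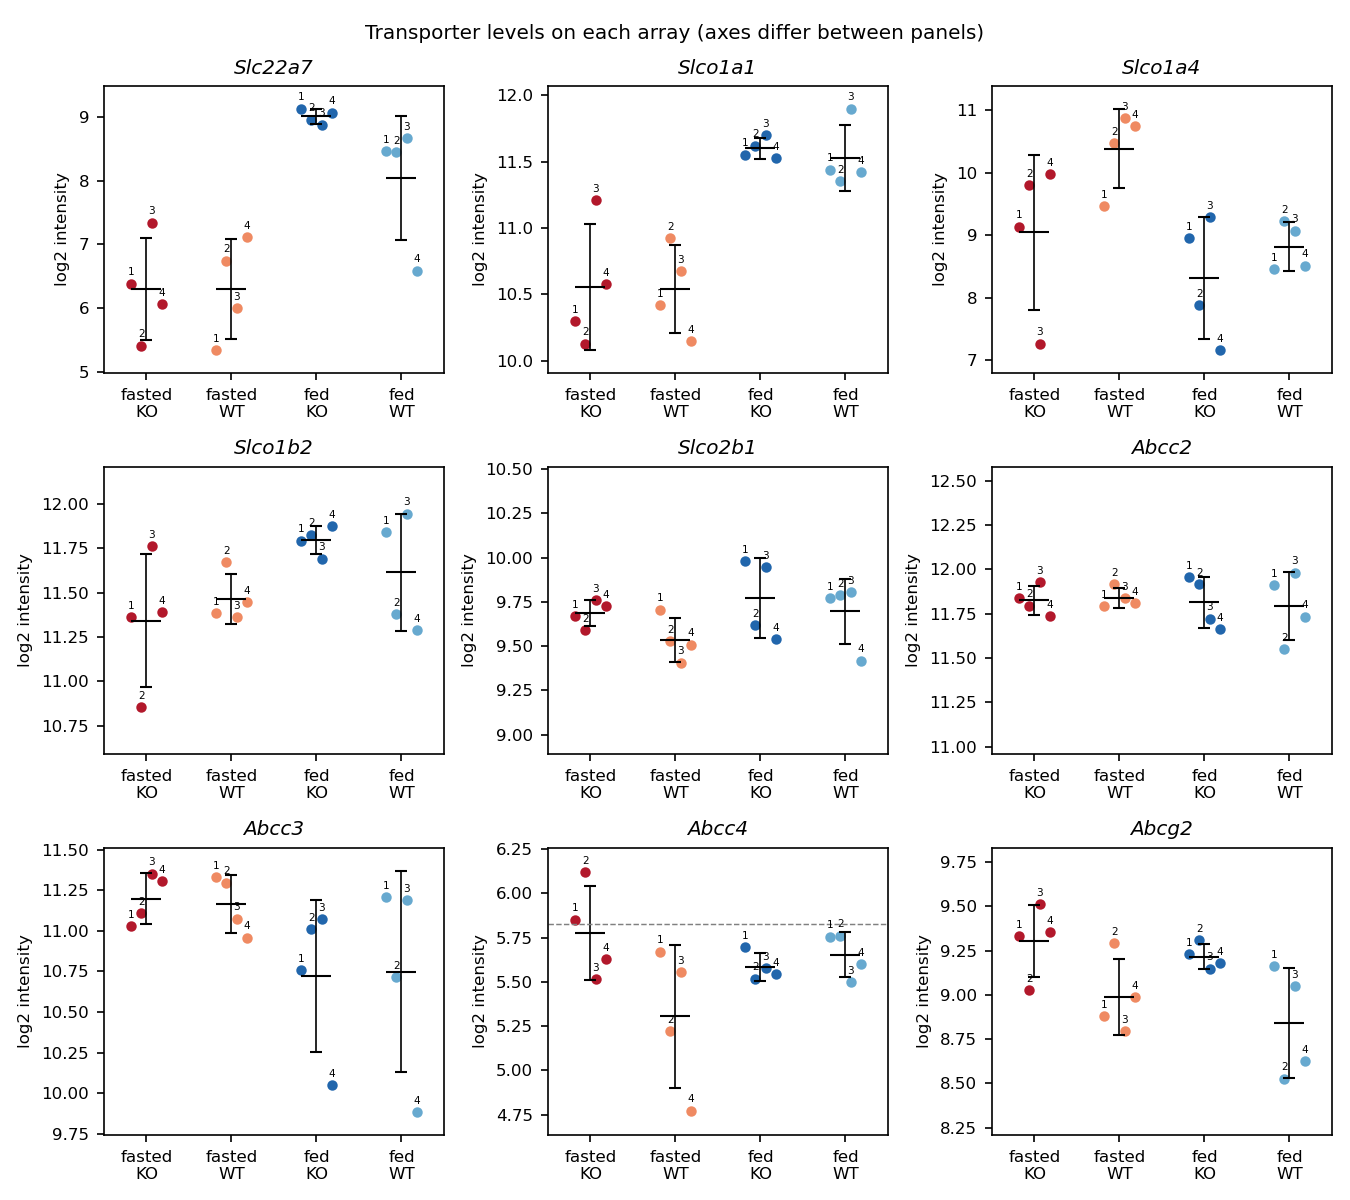
Log2 intensity of each of the 9 transporters on each of the 16 arrays (points), with the mean and SD of the 4 arrays of a group. The means of Slc22a7 and Slco1a1 are lower in both fasted groups than in the fed groups, with Slc22a7 on fed WT 4 among the fasted values. Slco1a4 spreads widely within groups, and Abcc2 stays between 11.55 and 11.98 on every array.

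The first question was what 24 h without food did to these transporters in each genotype. In KO liver 2 of the 9 members were called lower, Slc22a7 and Slco1a1, and 0 higher, against 4.89% of all genes called lower and 4.53% called higher (9.42% in all; limma, Benjamini-Hochberg adjusted p below 0.05). In WT liver the same pair, Slc22a7 and Slco1a1, was called lower and 0 members higher, against 4.27% and 3.34% of all genes (7.61% in all). The median log2 difference of the 9 members was 0.01 in KO and -0.15 in WT liver, beside 0.02 and 0.01 over all genes. An unadjusted p below 0.05 was found for 3 members in KO and 4 in WT liver, against 22.1% and 21.2% of all genes. The falls thus concerned a pair of uptake carriers, while no exporter passed the test in either genotype. RNA of whole liver cannot tell fewer cells of a type from less RNA per cell.

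Slc22a7 encodes Oat2, a sinusoidal carrier of organic anions and cyclic nucleotides. Its level was 6.38, 5.41, 7.34 and 6.06 in fasted KO livers and 9.13, 8.95, 8.88 and 9.07 in fed KO livers. It was 5.34, 6.74, 6.00 and 7.11 in fasted WT livers and 8.46, 8.45, 8.67 and 6.59 in fed WT livers. The KO groups did not overlap, and in WT the fed WT 4 array lay among the fasted values. Fasted KO 2 and fasted WT 1 lay below the array medians over genes (5.66 to 5.83), where an array gives little signal over background. The fall on fasting was 6.55-fold in KO liver (log2 difference -2.71, SE 0.45, 95% interval -3.67 to -1.76, limma adjusted p = 0.00101). In WT liver it was 3.35-fold (log2 difference -1.74, SE 0.45, 95% interval -2.70 to -0.79, limma adjusted p = 0.0248). Of all genes, 99.9% had a smaller span between their highest and lowest group mean than the 2.71 of Slc22a7. The KO call held in 32 of 32 alternative settings.

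The WT call for Slc22a7 was less firm. It ended in 9 of 32 settings, among them without any 1 of fasted WT 1, fasted WT 3, fed WT 1, fed WT 2 and fed WT 3 (adjusted p 0.0660, 0.0682, 0.0694, 0.0667 and 0.0733). Without fed WT 4, the array with high macrophage markers and low CAR, PXR and PPARalpha targets, the log2 difference was -2.23 (limma adjusted p = 0.00347). The array names carry a plate position, and columns 05 and 07 each hold 2 arrays of every group. Plate rows are not shared between groups, so every comparison of groups is also one of rows, and row and group cannot be told apart. Within plate column 05 the WT difference was -2.90, and within column 07, which holds fed WT 4, it was -0.59. In KO liver it was -2.14 within column 05 and -3.28 within column 07. The part of the macrophage markers or of the receptor targets in this spread was not tested.

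Slco1a1 encodes Oatp1a1, a bile acid and steroid conjugate carrier that is male-biased in mouse liver. It was at 10.30, 10.13, 11.21 and 10.58 in fasted KO livers and at 11.55, 11.62, 11.70 and 11.53 in fed KO livers. It was at 10.42, 10.92, 10.68 and 10.15 in fasted WT livers and at 11.44, 11.35, 11.90 and 11.42 in fed WT livers. In both genotypes every fasted array lay below every fed one, which was so for 8.07% of all genes in KO and 6.39% in WT liver. The fall was 2.06-fold in KO (log2 difference -1.05, SE 0.20, limma adjusted p = 0.00253) and 1.98-fold in WT liver (log2 difference -0.99, SE 0.20, limma adjusted p = 0.00561). Both calls held in 32 of 32 settings, with adjusted p from 2.03e-04 to 0.0316 in KO and from 0.00125 to 0.0264 in WT liver. Within the 2 plate columns the difference was -0.87 and -1.22 in KO and -1.12 and -0.85 in WT liver.

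**Figure D2:**
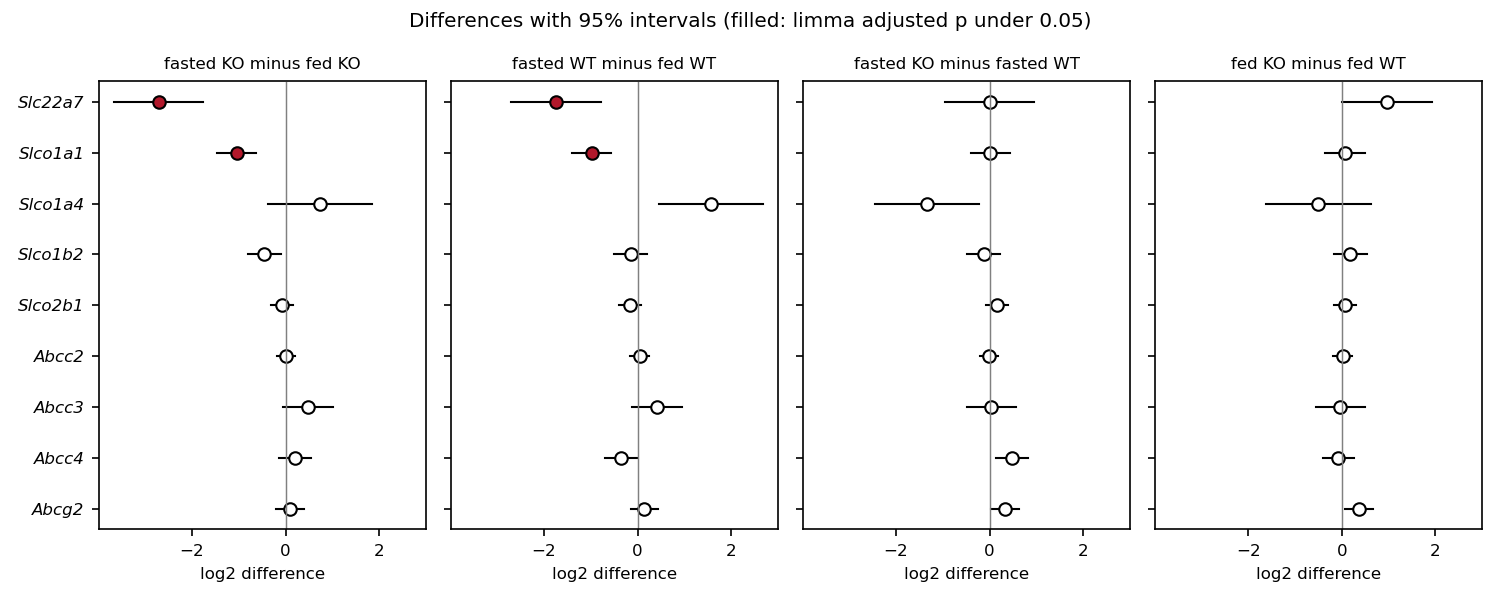
Log2 difference of each transporter with its 95% interval in the fasting comparisons (KO and WT) and the knockout comparisons (fasted and fed). Of these, the fasting differences of Slc22a7 and Slco1a1 passed the adjusted threshold (filled points), and the intervals of Abcc2 are the narrowest and those of Slco1a4 the widest.

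Slco1a4 encodes Oatp1a4, which carries bile acids and the cardiac glycoside digoxin, and is known as inducible through the receptor PXR. Its level was 9.13, 9.80, 7.27 and 9.98 in fasted KO livers and 8.95, 7.89, 9.29 and 7.16 in fed KO livers. It was 9.46, 10.46, 10.87 and 10.74 in fasted WT livers and 8.46, 9.22, 9.07 and 8.51 in fed WT livers. The KO groups overlapped, while all 4 fasted WT arrays lay above all 4 fed WT arrays, which was so for 6.02% of all genes. The WT difference of 1.57 (SE 0.53, 95% interval 0.45 to 2.68) missed the threshold after adjustment (limma adjusted p = 0.0835). It passed without fasted WT 1 (0.0455), without fasted KO 3 (0.0260) and with only the groups compared (0.0170). Over the 32 settings the adjusted p ran from 0.0170 to 0.193.

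In KO liver the Slco1a4 difference was 0.73 (SE 0.53, 95% interval -0.39 to 1.84, limma adjusted p = 0.462). It had opposite signs within the plate columns, -0.92 in column 05 and 2.37 in column 07, and it was 1.32 without fasted KO 3 and 0.34 without fed KO 4. The lowest value, on fed KO 4, came with that array's high acute phase genes, Saa2 at 13.34 and Lcn2 at 12.30. The next lowest, on fasted KO 3, came with Saa2 at 6.20 and Lcn2 at 6.32. Fed KO 1 had Saa2 at 12.06 with Slco1a4 at 8.95. The mean of 6 CAR and PXR targets was the lowest of its group on fed KO 4 (8.54) and on fasted KO 3 (8.64). In WT liver the arrays lowest in Slco1a4 were not lowest in that mean (fasted WT 1 at 8.83, fed WT 1 at 9.49). The part of the acute phase genes and of these targets was not tested. Slco1a4 varied more between arrays of 1 group than 99.7% of all genes, with a pooled SD of 0.87.

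Slco1b2 encodes Oatp1b2, the mouse counterpart of the human carriers for bilirubin conjugates and statins. It was at 11.36, 10.85, 11.76 and 11.39 in fasted KO livers and at 11.79, 11.83, 11.69 and 11.88 in fed KO livers. The groups overlapped through fasted KO 3 alone, and the difference of -0.45 (SE 0.17) did not pass adjustment (limma adjusted p = 0.102). Without fasted KO 3 it was -0.59 and passed (adjusted p = 0.0303). That array also held the highest Slc22a7 (7.34) and Slco1a1 (11.21) and the lowest Slco1a4 (7.27) of the fasted KO group. In WT liver Slco1b2 averaged 11.47 ± 0.14 in fasted and 11.62 ± 0.33 in fed mice (SD, n = 4; difference -0.15, limma adjusted p = 0.673). Slco2b1, which encodes the broadly expressed Oatp2b1, averaged 9.69 ± 0.07 in fasted and 9.77 ± 0.23 in fed KO livers, and 9.54 ± 0.12 in fasted and 9.70 ± 0.19 in fed WT livers (SD, n = 4 each). Its differences of -0.08 and -0.16 did not pass (limma adjusted p = 0.726 and 0.457).

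Around these genes RefSeq lists a run of 8 coding Slco1 genes and predicted relatives, of which 7 were measured. Slco1a1 was the one called on fasting, in both genotypes. Slco1c1, Gm6614, Slco1a6 and Slco1a5 had group means between 2.79 and 3.65, below every array's median, where an array gives little signal over background. Probes for such close relatives can capture each other's transcripts, so the values of single members carry that uncertainty.

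**Figure D3:**
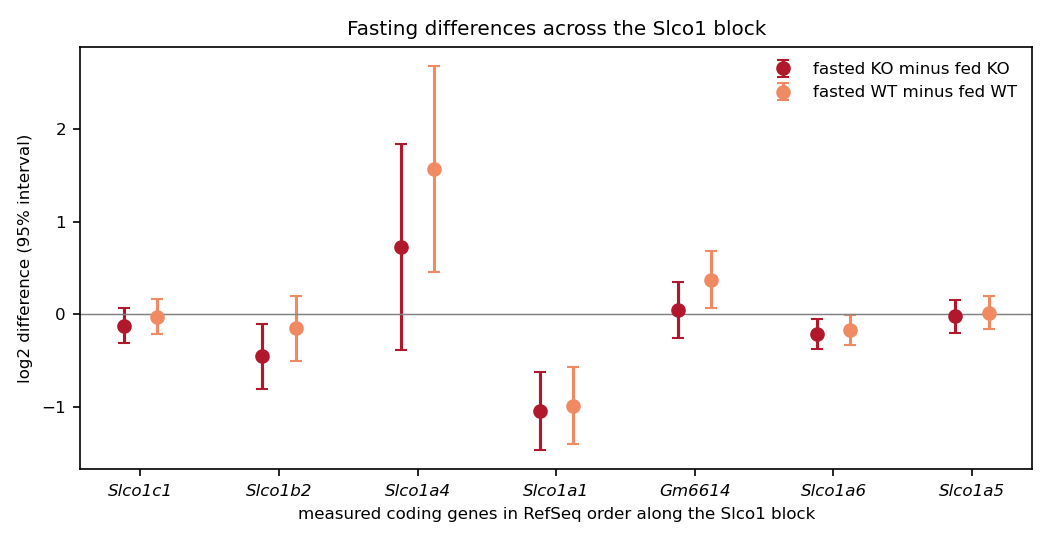
Log2 fasting difference with its 95% interval for the measured genes of the Slco1 run on chromosome 6, in RefSeq order, for KO and WT liver. Slco1a1 lies at -1.05 and -0.99, and its neighbour Slco1a4 lies on the other side of 0 at 0.73 and 1.57.

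Among the exporters, Abcc2 encodes Mrp2, the canalicular pump for bilirubin and glutathione conjugates, and it had the flattest profile. It averaged 11.83 ± 0.08 in fasted and 11.81 ± 0.14 in fed KO livers, and 11.84 ± 0.06 in fasted and 11.79 ± 0.19 in fed WT livers (SD, n = 4 each). Its group means spanned 0.05, and only 1.82% of all genes had a smaller span. The 95% interval of the KO difference, -0.19 to 0.21, leaves out changes of more than about that size, but the p-value alone does not show equality (limma adjusted p = 0.968).

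Abcc3 encodes Mrp3, the basolateral pump for glucuronides and bile acids. Its level was 11.03, 11.11, 11.35 and 11.31 in fasted KO livers and 10.76, 11.01, 11.07 and 10.05 in fed KO livers. It was 11.33, 11.30, 11.07 and 10.96 in fasted WT livers and 11.21, 10.72, 11.19 and 9.88 in fed WT livers. The lowest arrays were fed KO 4 and fed WT 4. The differences of 0.47 in KO and 0.42 in WT liver did not pass (limma adjusted p = 0.284 and 0.369). The KO difference was 0.25 without fed KO 4, and the WT difference was 0.13 without fed WT 4. With any 1 array left out they ran from 0.25 to 0.59 in KO and from 0.13 to 0.57 in WT liver.

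Abcg2 encodes Bcrp, a canalicular exporter of sulfates and drugs, and its fasting differences of 0.09 in KO and 0.15 in WT liver did not pass (limma adjusted p = 0.776 and 0.614). Abcc4 encodes Mrp4, a basolateral pump for cyclic nucleotides and bile acids. Its group means of 5.30 to 5.78 lay near the array medians, where an array gives little signal over background. Its differences were 0.19 in KO and -0.35 in WT liver (limma adjusted p = 0.530 and 0.222). The WT difference was -0.17 without fasted WT 4 and ran from -0.47 to -0.17 with any 1 array left out.

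The second question was whether loss of vanin-1 changed these levels. In fasted liver 0 of 9 members were called, against 0.0159% of all genes (3 genes). Unadjusted p was below 0.05 for 3 members, Slco1a4, Abcc4 and Abcg2, against 5.49% of all genes. In fed liver 0 of 9 were called, against 0.00531% (1 gene, Vnn1), with unadjusted p below 0.05 for Slc22a7 and Abcg2, against 5.76%. No member was called in either genotype comparison in any of the 32 settings (limma).

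Slco1a4 was lower in fasted KO than in fasted WT liver by a log2 difference of -1.34 (95% interval -2.45 to -0.23, limma adjusted p = 0.867), and the groups overlapped. Without fasted KO 3 the difference was -0.75, and with any 1 array left out it ran from -1.65 to -0.75. In fed liver it was -0.50 (limma adjusted p = 0.916), with 0.35 within plate column 05 and -1.34 within column 07. Slc22a7 averaged 6.30 ± 0.80 in fasted KO and 6.30 ± 0.79 in fasted WT liver (SD, n = 4 each), a difference of -0.00 (95% interval -0.96 to 0.95). In fed liver all 4 KO arrays lay above all 4 WT arrays, which was so for 1.28% of all genes, and the difference was 0.96 (95% interval 0.01 to 1.92, limma adjusted p = 0.859). Without fed WT 4 that difference was 0.48, and with any 1 array left out it ran from 0.48 to 1.17.

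Abcg2 was at 9.33, 9.03, 9.51 and 9.35 in fasted KO livers and at 8.88, 9.29, 8.79 and 8.99 in fasted WT livers. It was at 9.23, 9.31, 9.15 and 9.18 in fed KO livers and at 9.16, 8.53, 9.05 and 8.62 in fed WT livers. The KO mean was higher in both states, by 0.32 in fasted (limma adjusted p = 0.885) and 0.37 in fed liver (limma adjusted p = 0.855), with overlap in each. Within plate columns 05 and 07 the difference was 0.58 and 0.05 in fasted liver, and 0.08 and 0.67 in fed liver. Averaged over feeding, a contrast added after the values were seen, the difference was 0.35 (95% interval 0.13 to 0.56) and did not pass adjustment (limma adjusted p = 0.756). The unadjusted p of that contrast was below 0.05 for Abcg2 and Slco1a4, as for 6.17% of all genes.

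Abcc4 was at 5.85, 6.12, 5.52 and 5.63 in fasted KO livers and at 5.67, 5.22, 5.55 and 4.77 in fasted WT livers, a difference of 0.47 (limma adjusted p = 0.867). Its lowest value was on fasted WT 4, the array with the pancreatic markers, and without that array the difference was 0.30. With any 1 array left out it ran from 0.30 to 0.59. The part of the pancreatic markers was not tested.

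Whether fasting acted differently in the 2 genotypes was tested as the KO response minus the WT response, where 0 of 18820 genes passed adjustment and 4.91% had an unadjusted p below 0.05 (limma). Of the members, Abcc4 alone had an unadjusted p below 0.05 (difference 0.54, limma adjusted p = 0.948). The difference was -0.97 for Slc22a7 (limma adjusted p = 0.948) and -0.84 for Slco1a4 (limma adjusted p = 0.956). It was -0.48 for Slc22a7 without fed WT 4 and for Slco1a4 -0.25 without fasted KO 3 and -0.52 without fed KO 3. With any 1 array left out it ran from -1.31 to -0.48 for Slc22a7 and from -1.23 to -0.25 for Slco1a4. The larger fall of Slc22a7 in KO liver was therefore not shown to differ from that in WT liver.

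Averaged over the genotypes, with 8 fasted and 8 fed arrays, 3 of 9 members passed, against 18.3% of all genes. Slc22a7 differed by -2.23 (limma adjusted p = 1.14e-04) and Slco1a1 by -1.02 (limma adjusted p = 7.84e-05). Slco1a4 joined them in the other direction with a rise of 1.15 (SE 0.37, 95% interval 0.36 to 1.93, limma adjusted p = 0.0407), against 8.4% of genes called higher. Its 8 fasted arrays ranged from 7.27 to 10.87 and its 8 fed arrays from 7.16 to 9.29, and this averaged contrast, also added after the values were seen, was not recomputed without single arrays.

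**Figure D4:**
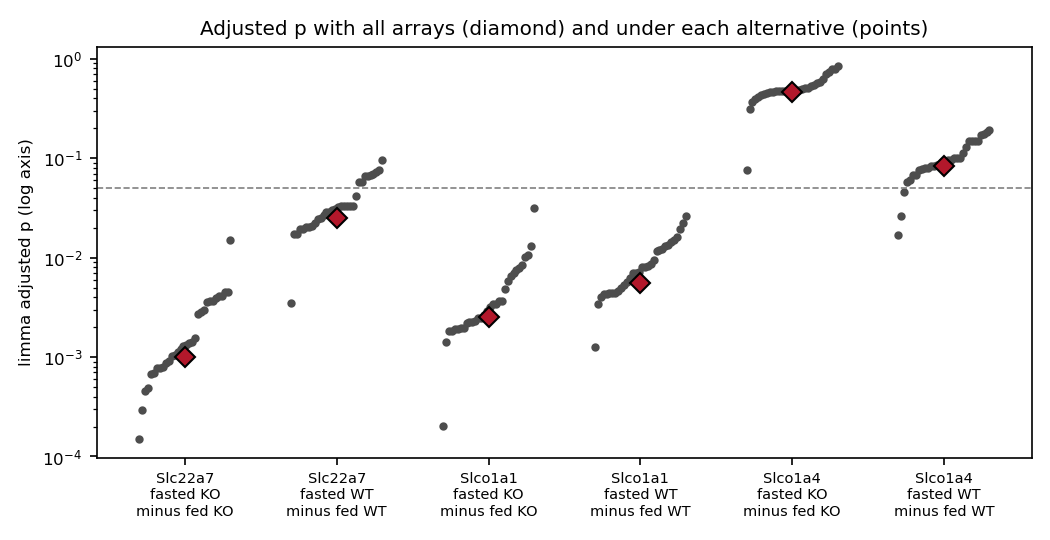
Limma adjusted p (log axis) of the fasting difference of Slc22a7, Slco1a1 and Slco1a4 in KO and WT liver, with the reported setting as a diamond, each alternative as a point in order of size, and the threshold of 0.05 as a dashed line. Slc22a7 in KO and Slco1a1 in both genotypes stay below 0.05 throughout, whereas Slc22a7 in WT lies between 0.00347 and 0.0956.

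Some other transporters of the liver were called on fasting, in both directions. Of 20 other SLC uptake carriers, 1 was called higher and 2 lower in KO and 1 higher and 1 lower in WT liver. The list medians were -0.07 and -0.02, and of all genes 9.42% were called in KO and 7.61% in WT liver. Slc22a5, the carnitine carrier Octn2, rose by 2.08 in KO (10.06 fasted, 7.99 fed; limma adjusted p = 4.45e-05) and by 1.69 in WT liver (9.44 fasted, 7.75 fed; adjusted p = 5.12e-04). Slc22a30 fell by 1.17 in KO and by 1.19 in WT liver. Slc22a4 fell by 0.71 in KO liver alone by call (adjusted p = 0.0165; 0.0503 without fasted KO 3 and 0.0515 without fasted KO 4), and its WT difference was -0.16. Slc10a1, the sodium-coupled bile acid carrier Ntcp, differed by 0.06 in KO and -0.00 in WT liver (limma adjusted p = 0.690 and 0.985).

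Of 16 other exporters, 2 were called higher and 3 lower in KO and 2 higher and 4 lower in WT liver. Over all genes 9.42% were called in KO and 7.61% in WT liver. Abcb4, the canalicular phospholipid floppase, rose by 0.81 in KO and by 0.84 in WT liver (limma adjusted p = 8.41e-04 and 9.58e-04). Abcb11, the bile salt export pump, fell by 0.70 and 0.72 (limma adjusted p = 3.09e-04 and 4.54e-04), and Atp8b1, a phospholipid flippase of the canaliculus, by 0.61 and 0.66. These calls of Abcb4, Abcb11 and Atp8b1 held with any 1 array left out, and the KO call of Atp8b1 ended without the 3 arrays whose names end in 2 (adjusted p = 0.0551). The other exporters called were Abcc10, which rose by 0.32 in KO and 0.39 in WT liver, Abcc6, which fell by 0.37 and 0.47, and Abcc5, which fell by 0.36 in WT liver. In KO liver the call of Abcc10 ended without fasted KO 2, fasted KO 4, fed KO 2 or fed KO 3, and that of Abcc6 without fasted KO 1, fasted KO 4, fed KO 1, fed KO 2 or fed KO 3 (adjusted p 0.0541 to 0.0907).

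**Figure D5:**
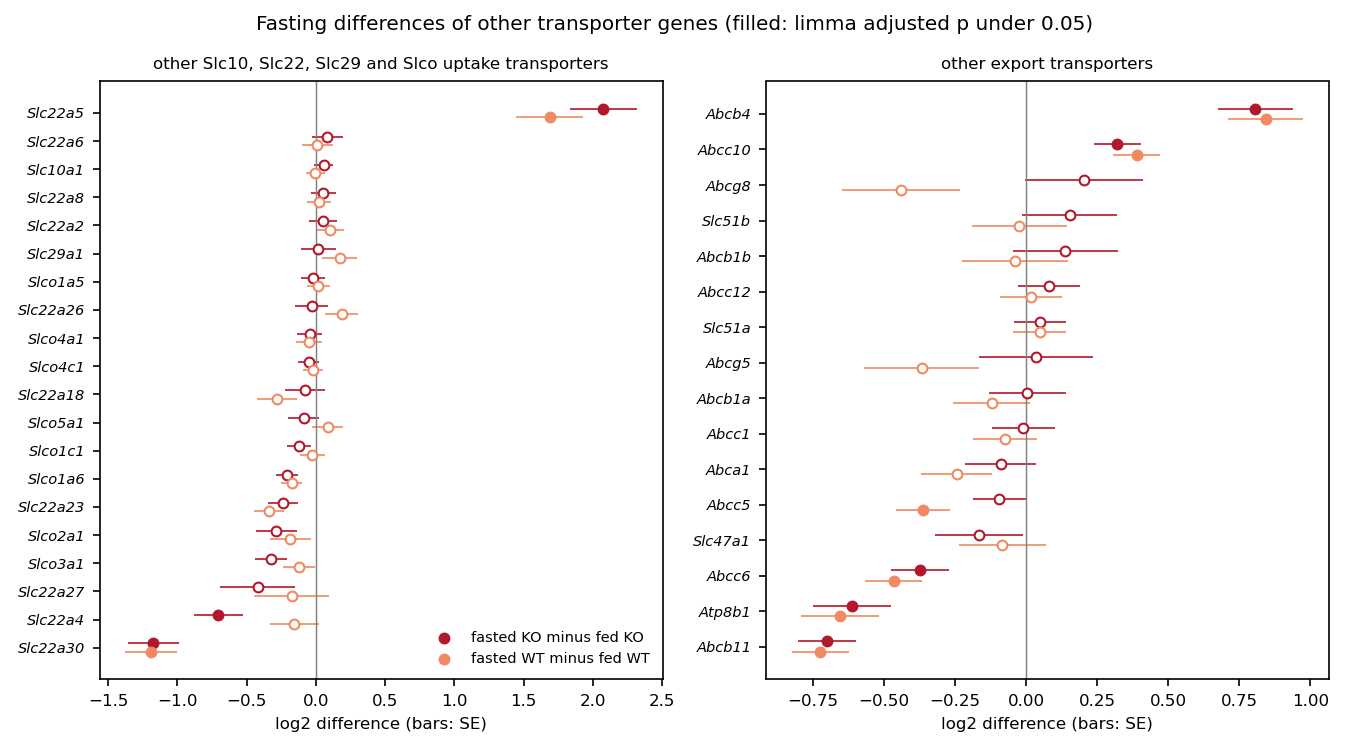
Log2 fasting difference of the other uptake carriers and exporters in KO and WT liver, with the SE as bars and called genes filled. Slc22a5 rises by 2.08 and 1.69, Abcb4 by 0.81 and 0.84, and Abcb11 lies at -0.70 and -0.72.

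Lists of regulators and their targets were read in the same fit. Beside their counts stand 4.89% of all genes called lower and 4.53% higher in KO, and 4.27% and 3.34% in WT liver. Of 18 nuclear receptors and liver factors, 0 were called higher and 3 lower in KO and 2 higher and 2 lower in WT liver. Cebpa, a hepatocyte transcription factor, fell by 0.69 in KO and by 0.64 in WT liver, and Nr3c1, the glucocorticoid receptor, by 0.37 and 0.41. Nr5a2, a bile acid synthesis regulator, fell by 0.36 in KO liver, a call that ended without fasted KO 1, fasted KO 4 or fed KO 4. In WT liver Cux2 rose by 0.67, a call that ended with only the groups compared (limma adjusted p = 0.0890). Its means there, 5.41 fasted and 4.74 fed, lay below every array's median over genes, where an array gives little signal over background. Hnf4a was called higher in WT liver by 0.23 and lost the call in 23 of 32 settings, among them median centring, quantile and cyclic loess normalization (limma adjusted p = 0.0526, 0.0534 and 0.0575). With 1 array left out the Hnf4a call held only without fasted WT 1, fed WT 3 or fed KO 4. The 7 measured PPARalpha targets were all called higher in both genotypes, with a median log2 difference of 2.55 in KO and 1.74 in WT liver. The WT call of Cyp4a14 among them ended in 6 of 32 settings. Of 8 Nrf2 targets 1 was higher in each genotype, Srxn1, by 1.07 in KO and 1.09 in WT liver. Osgin1 was the 1 called lower, in WT liver (-1.21). That call was lost in 9 of 32 settings, among them without fasted WT 3, fasted WT 4, fed WT 1 or fed WT 4.

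Of 6 CAR and PXR targets, receptors for foreign compounds, 2 were called lower in each genotype. Over all genes 4.89% were called lower in KO and 4.27% in WT liver. These were Cyp2c55, at -1.40 in KO and -1.38 in WT liver, and Gstm3, at -0.97 and -1.18. Cyp2c55 averaged 4.40 in fasted KO and 4.22 in fasted WT liver, below every array's median over genes, where an array gives little signal over background. The medians of this list were -0.10 in KO and 0.19 in WT liver. Alas1, the first enzyme of heme synthesis, was called higher in WT liver (0.84), a call that held with 1 array left out only without fed WT 1, fed WT 3, fed KO 1 or fed KO 4. Of 4 AhR targets 1 was called lower in both genotypes, Cyp1a2, by -0.82 in KO and -0.67 in WT liver. Its WT call ended in 8 of 32 settings. Among them were those without fasted WT 3, fasted WT 4, fed WT 1, fed WT 3 or fed WT 4. Conjugation enzymes, which supply the substrates of the exporters, were called lower for 6 of 22 in KO and 4 of 22 in WT liver and higher for 0, with medians of -0.43 and -0.23. Of 8 scaffolds that hold transporters in the membrane, 2 were called lower in KO and 3 in WT liver. Slc9a3r1, the PDZ adaptor that binds the tails of Abcc2 and other carriers, fell by 1.11 in KO and by 0.90 in WT liver (limma adjusted p = 1.18e-05 and 1.98e-04).

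Slco1a1 belongs to the male-biased genes of mouse liver that depend on growth hormone pulses. Of 11 other such genes, 5 were called lower in KO and 4 in WT liver and 0 higher, with medians of -0.59 and -0.34. Over all genes 4.89% were called lower in KO and 4.27% in WT liver. Hsd3b5, a steroid dehydrogenase, was at 6.15 in fasted and 11.18 in fed KO livers and at 6.84 in fasted and 11.17 in fed WT livers. No gene of any of these lists was called in either genotype comparison or in the difference of the fasting responses (limma). Among markers of other liver cells, 1 of 10 macrophage markers was called lower in KO and 2 in WT liver. Of 10 stellate cell markers 3 were called lower in KO and 2 in WT liver, against 4.89% and 4.27% of all genes. The WT calls among them of Adgre1, Folr2 and Lrat ended in 13, 18 and 18 of 32 settings, and the KO calls of Folr2 and Lrat in 1 and 4. None of 7 cholangiocyte, 10 sinusoidal endothelial or 7 pancreatic acinar markers was called. Of 12 acute phase genes 4 were called lower in KO and 1, Steap4, in WT liver (a call that ended in 16 of 32 settings), and of 7 hepatocyte markers the gluconeogenic gene Pck1 was called higher in WT liver (0.54). The part of these cells in the members' differences was not tested.

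Over the 16 arrays, the genes whose centred levels lay closest to those of Slc22a7 were Msmo1 (root mean square difference 0.58), Serpina12 (0.60) and Cyp51 (0.61), of which Msmo1 and Cyp51 encode enzymes of cholesterol synthesis. For Slco1a1 they were Syt1 (0.20), the glycolate oxidase gene Hao1 (0.21) and the hydroxysteroid dehydrogenase gene Akr1c14 (0.22). For Slco1a4 they were Ppargc1a (0.64), the coactivator gene induced on fasting, Cyp39a1 (0.68), an oxysterol hydroxylase gene, and Nipal1 (0.73). All 16 points share the 4 groups, so these distances describe the profiles and carry no p.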

How the data were processed

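Per the submitters' processing notes, the authors deposited log2 intensities from RMA, a method that by default subtracts background, equalises the arrays' quantiles and combines probes into probe sets. The RMA version was not given in the sources used here. There were 35556 probe sets, with values of 1.26 to 14.19. A supplied annotation named 23099, 21218 of them with 1 gene symbol, of which 21185 matched RefSeq (GRCm38.p6). For 1386 genes with several such probe sets the one with the highest mean was kept, leaving 18820 genes, with no filter on dim ones.

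Groups came from the labels. A mean per group was fitted to all 16 arrays with limma 3.58.1 in R 4.3.3 (12 residual and 4.66 prior degrees of freedom). Tests were two-sided, with Benjamini-Hochberg adjustment across the 18820 genes in each contrast, and an adjusted p below 0.05 was a call. The procedure was tested on simulated arrays. The number of arrays limits the precision.

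The 9 members and the 17 other lists were chosen with earlier results of these data known, so no list was tested. Besides the members and Vnn1, named genes were up to 3 called genes of largest difference per list and direction, and the 3 nearest in profile to each member whose group means spanned at least 1. Slc10a1 was added as the chief bile acid carrier, and Saa2 and Lcn2 for fed KO 4, after their values were seen, as was Abcc5. Title numbers were not taken to pair the arrays (below). Alternatives changed normalization, dim-gene filter, probe sets, variance prior, array weights, arrays fitted, blocks for title number and plate position, and each array left out. Plate row as a random block, averaged contrasts and values within plate columns were added after seeing the data. Since rows are not shared between groups, the row block cannot separate row from group. Upstream sequences came from RefSeq tables, where 7 of the 9 members matched.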

Additional observations from a re-analysis of the deposited data

Results flagged for a closer look

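In 3 of 36 groups of 4 arrays (9 members by 4 groups), 1 array lay farther from the rest than Dixon's 95% limit allows; chance flags about 1 in 20 groups. All were fed WT. Slc22a7 was at 6.59 on fed WT 4 and at 8.45 to 8.67 on the other fed WT arrays. Slco2b1 was at 9.42 on fed WT 4 and at 9.77 to 9.81 on the others. Slco1a1 was at 11.90 on fed WT 3 and at 11.35 to 11.44 on the others. Without fed WT 4 the WT fasting difference of Slco2b1 was -0.25 (limma adjusted p = 0.217). Without fed WT 3 that of Slco1a1 was -0.86 (limma adjusted p = 0.0195).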

How the results depend on the processing

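The counts of calls, the members, Vnn1 and the list genes taken by the naming rule were recomputed under up to 32 alternatives, and no called value among them changed sign. The averaged contrasts, Abcc5 and Slc10a1 were not recomputed. Of the members' fasting calls, Slc22a7 in KO and Slco1a1 in both genotypes held under all 32, and Slc22a7 in WT ended under 9. The count of members called in WT fasting was 1 with every probe set, with a robust prior and when the 3 arrays with names ending in 2 (fasted KO 1, fed WT 2 and fed KO 4) were dropped, and ranged from 1 to 3 with single arrays left out, as against 2 to 3 in KO. With only the groups compared the WT count of members was 2, with Slco1a4 called higher and Slco1a1 lower, while Slc22a7 lost its call. The count of genes called in WT fasting was 829 with only the groups compared, and ranged from 880 (without fasted WT 4) to 1608 with single arrays left out. In KO fasting it was 964 without those 3 arrays, and 1216 to 1861 with single arrays left out. In the fasted knockout comparison it was 1 without those 3 arrays and 1 without fasted WT 4 and fed KO 4 (1 to 5 with single arrays left out). In the fed knockout comparison it was 2 with median centring, the filter at the 50th percentile, a trended prior, a robust prior, array weights or the plate row block, 4 with every probe set, 0 with only the groups compared and 0 without the 3 arrays (1 to 3 with single arrays left out). The difference of the fasting responses gave 0 to 1 genes with single arrays left out. The fall of Vnn1 in fed KO liver lost its call with only the groups compared (adjusted p = 0.163) and without those 3 arrays (0.0759). The cause was not tested.

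Title numbers 1 to 4 recur in every group. Arrays of the same number in different groups correlated in their deviations from the group means at -0.22 to 0.21 (4 of 24 pairs over 0.1). Those of different number did so at -0.28 to 0.30 (15 of 72 pairs over 0.1), so the numbers were not taken to pair the arrays. With the title number as a replicate block, 1658 genes were called in KO and 1324 in WT fasting, 2 and 1 in the fasted and fed knockout comparisons and 0 for the difference of the fasting responses. Under the block 2 members were called in KO and 2 in WT fasting and 0 in the other comparisons, and Slc22a7 in WT had an adjusted p of 0.0417. Of the genes named from the lists, 23 of 32 calls in KO and 20 of 34 in WT fasting held throughout. Abcc4 has no value under the filter at the 50th percentile.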
